A study of Hordeum vulgare with 12 samples.

Results

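The genes described here are 165 barley genes whose transcript level after zeocin treatment was at most 0.5 times the mock level in the *atr* mutant *hvatr.g* but stayed above 0.5 times that level in the wild type. Levels were given in CPM, the counts of a gene per 1000000 counts of its library, averaged over the libraries of a group. A gene was taken where the ratio of the zeocin mean to the mock mean was at most 0.5 in *hvatr.g*, where no zeocin-treated *hvatr.g* library reached a mock-treated one, where the same ratio in WT was over 0.5, and where the mock mean was at least 10 CPM in both genotypes. Of the 83990 rows of the count table, 11900 reached the 10 CPM floor in both genotypes. The rule was met by 170 rows, and 5 of them were set aside because the rule lists their identifiers for removal. The 165 that remained belonged to 165 genes. All 4 groups of libraries enter the rule, so the levels and ratios below describe how the genes were chosen and are not tests of it.

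The libraries were made from poly(A) RNA of dissected root apices of 7-day-old seedlings raised from excised embryos. After growth on solid medium, the seedlings were kept for 6 h in liquid medium with 0 (mock) or 500 μg/ml zeocin, a bleomycin-type antibiotic that breaks DNA strands. The genotypes were *cv.* Sebastian, the wild type (WT), and *hvatr.g*, a TILLING allele of the checkpoint kinase gene *ATR* in the same cultivar, a loss-of-function allele represented by 1 mutant line. Each of the 4 groups had 3 libraries. They are called biological replicates, and the methods describe the material as prepared like that of an earlier RT-qPCR series, in which the root meristems of single plants were dissected.

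Histones are the proteins around which DNA is wrapped: H2A, H2B, H3 and H4 form the core of the nucleosome, and H1 binds the DNA between nucleosomes. Most of their genes are transcribed in step with DNA synthesis, and histone transcripts are abundant in tissues with many dividing cells. ATR is a kinase that is activated by single-stranded DNA at stalled or damaged replication forks and slows the cell cycle while DNA is repaired.

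Total counts per library ran from 36100439 to 74699245. The targeted gene itself, *ATR* (7HG0748510), was measured at 13.2, 15.2 and 9.13 CPM in WT mock libraries, 11.2, 13.7 and 9.35 CPM in WT zeocin libraries, 20.7, 15.8 and 13.2 CPM in *hvatr.g* mock libraries and 18.4, 15.1 and 15.7 CPM in *hvatr.g* zeocin libraries, so its transcript was present in every library and its level does not check the genotype labels. The summed level of 7 B-type cyclin and CDK genes that mark dividing root apex cells ran from 129 to 152 CPM in WT mock libraries and from 169 to 221 CPM in *hvatr.g* mock libraries. After zeocin it ran from 38.5 to 60.3 CPM in WT and from 16.02 to 34.1 CPM in *hvatr.g*. None of these 7 genes is among the 165, and the part of dividing cells in the results was not tested. In whole root apices, fewer cells of a type and less RNA per cell cannot be told apart. Green tissue markers, 5 genes for chlorophyll a-b binding proteins or the small subunit of Rubisco, summed to at most 2.28 CPM in any library. Identifiers are given without their common start, HORVU.MOREX.r3., and carry the chromosome before the letter G. Gene descriptions came from the supplement of the study, which describes 464 of the 11900 rows over the floor, among them all 165 genes. These are largely genes the study listed as changed, so a family counted by description here is not the whole family of the genome.

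The members had a median zeocin/mock ratio of 0.403 in *hvatr.g*, with a range from 0.145 to 0.499. In WT the median was 0.577, and 162 of the 165 ratios lay below 1. The members were thus lower after zeocin in WT also, by less than the line of the rule. In WT, 55 members had a ratio of 0.55 or less, 97 had one of 0.6 or less, and 13 had one over 0.75. Over all 11900 rows above the floor the median ratio was 1.01 in WT and 1.02 in *hvatr.g*. Together the members made up 1.30% of all counts in mock-treated WT and 0.759% after zeocin. In *hvatr.g* their share was 1.33% under mock and 0.543% under zeocin treatment.

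**Figure D1:**
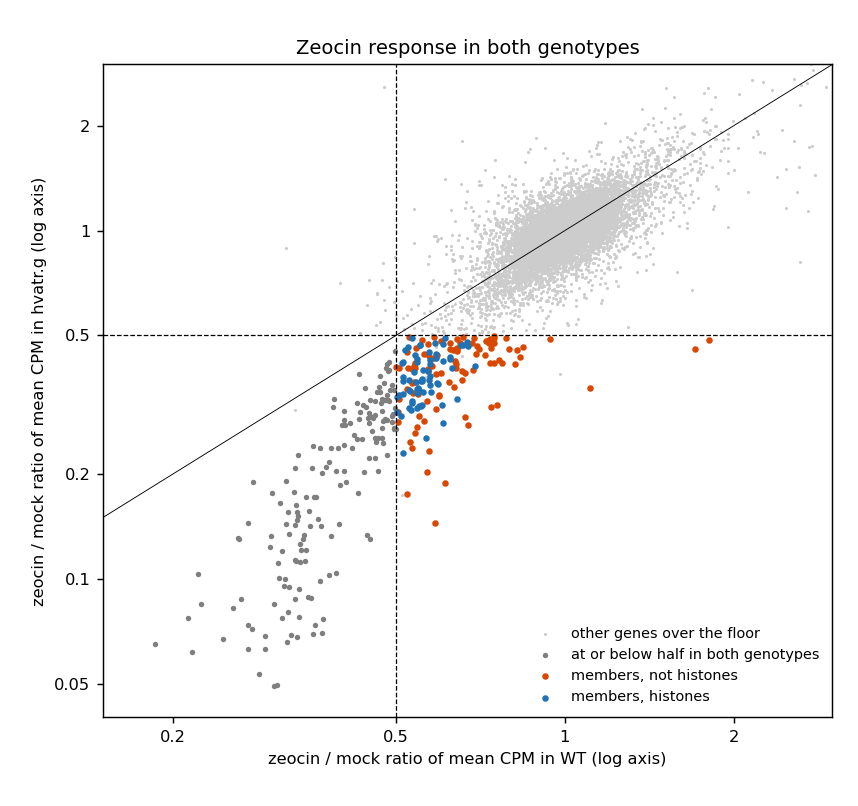
Ratio of the zeocin mean to the mock mean in WT (horizontal, log axis) and in *hvatr.g* (vertical, log axis) for the genes with a mock mean of at least 10 CPM in both genotypes. Dashed lines mark the ratio of 0.5 that the rule uses and the solid line marks equal ratios. The 165 members lie below the horizontal and right of the vertical dashed line, and the 164 genes at or below 0.5 in both genotypes continue the same cloud to the left. The axes leave out 37 genes, none of them a member.

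The vertical line of the rule ran through a continuous cloud of genes. A further 164 rows met all conditions in *hvatr.g* but were at or below 0.5 in WT, with a median ratio of 0.383 in WT and 0.202 in *hvatr.g*. Just inside the WT threshold were *VIM1* (1HG0000630), an H3 gene (6HG0568900) and an H4 gene (2HG0191380), with WT ratios of 0.5001, 0.501 and 0.501. Just outside it were an H3 gene (7HG0730840), a gene described as DNA helicase (5HG0443530) and a kinesin-like gene (2HG0173210), with WT ratios of 0.50, 0.498 and 0.498. On the other line, the *hvatr.g* ratio was 0.499 for a WD-repeat cell cycle regulatory protein (2HG0193900), 0.496 for a WD-repeat protein (5HG0500740) and 0.495 for *MET1*. It was 0.505 for an organic cation/carnitine transporter (2HG0135060), 0.505 for an arabinogalactan peptide-like gene (1HG0026190) and 0.508 for a gene with no description here (1HG0064790), which stayed outside.

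In a fit of all 12 libraries with edgeR's quasi-likelihood test, 163 of the 165 members had an adjusted p (Benjamini-Hochberg, over 26039 genes tested) under 0.05 and a lower level after zeocin in *hvatr.g*, where 3.97% of all tested genes did, and 0 were called higher, against 2.17%. The rule asked that the libraries of this contrast do not overlap, and 12.0% of all tested genes met that condition. This contrast chose the members, so nothing is read from these counts. The exceptions were a putative DNA replication helicase dna2 (2HG0196740) and a gene described as Plant/MSJ11-3 protein (3HG0240970). In WT, 86 of the 165 members were called lower after zeocin, against 1.59% of all tested genes, and 0 were called higher, against 1.57%. The zeocin-treated WT libraries lay wholly below the mock-treated ones for 138 members, as they did for 6.90% of the genes tested. The count of 86 rested on single libraries. It was 24 without replicate 1 of zeocin-treated WT, against 0.639% of all tested genes. It was 40 without replicate 2 of that group, against 0.938%. Without replicate 2 of mock-treated WT it was 47, against 0.82%. The share of all tested genes thus fell from 1.59% in these fits as well. Mock- and zeocin-treated WT libraries with the same replicate number deviated together. A fit of the 6 WT libraries with that number as a block, chosen after the data were seen, called 140 members lower, against 3.80% of all genes tested in it, and all 86 were among the 140. Without the block, the 6 WT libraries gave 27, against 0.891%.

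The difference between the zeocin responses of the genotypes (the interaction) was negative on the log2 scale for all 165 members, which the rule itself fixes. Its median was -0.62, against -0.02 over all genes tested. No gene of the 26039 was called for it with edgeR, thus 0 of the members and 0.00% of all genes. At an unadjusted p under 0.05 there were 98 members, against 4.30% of all genes. With DESeq2, 8 members and 0.434% of all genes had an adjusted p under 0.05. They were *CYCA3;1.A*, the glycosyltransferase genes 2HG0106390 and 2HG0106450, the histone-lysine N-methyltransferase gene 2HG0199050, an auxin influx transporter (1HG0017310), a CHUP1-like gene (1HG0090820), a branched-chain-amino-acid aminotransferase (4HG0394630) and a pectinesterase (5HG0429360). None of these 8 is a histone gene. For the other members, a ratio on either side of 0.5 is therefore not a called difference between the genotypes with either tool.

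Histone genes were the most numerous of the members, with 68 of 165. They comprised 26 H4, 16 H2A, 16 H2B, 8 H3 and 2 H1 genes. They also held most of the abundant members, with 33 of the 42 genes whose mean over the 6 mock libraries was at least 100 CPM. Their median ratio was 0.554 in WT, with a range from 0.501 to 0.691. In *hvatr.g* it was 0.372, with a range from 0.230 to 0.491. The summed level of the 68 genes was 7711, 8603 and 10679 CPM in the WT mock libraries and 4625, 4643 and 5987 CPM in the WT zeocin libraries. In *hvatr.g* it was 8611, 8697 and 8844 CPM in the mock and 3905, 3727 and 3011 CPM in the zeocin libraries. Neither genotype's zeocin libraries reached its mock libraries, and all 3 zeocin-treated *hvatr.g* libraries lay below all 3 zeocin-treated WT libraries. The mock libraries of the genotypes overlapped.

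**Figure D2:**
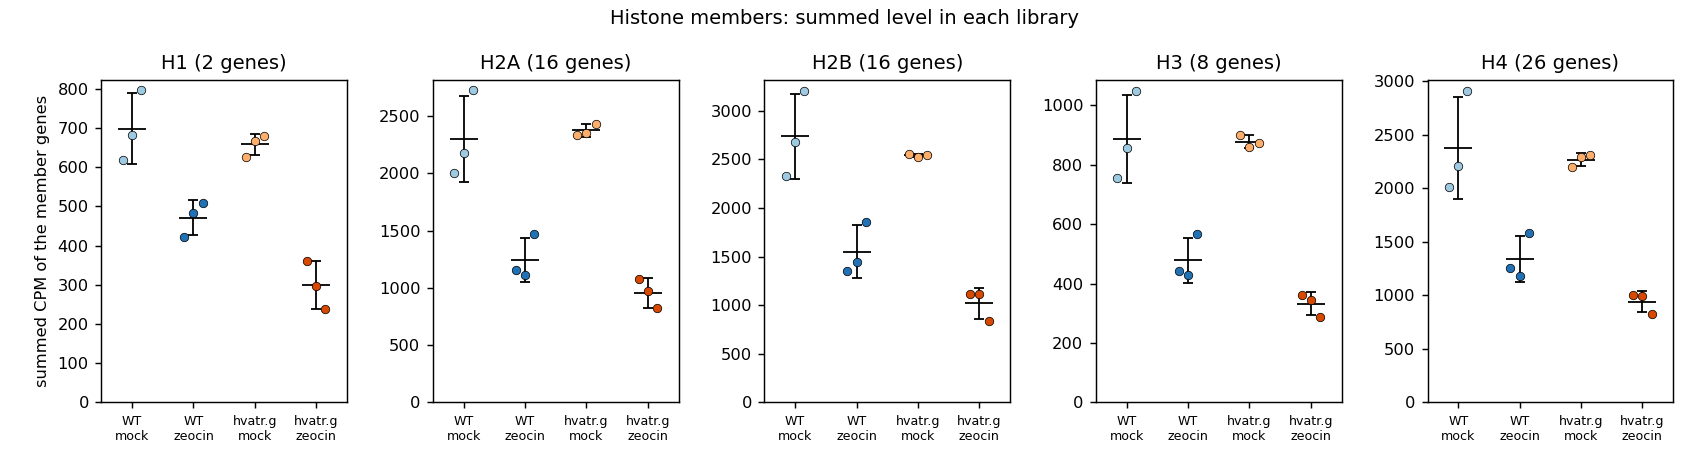
Summed CPM of the histone members of each type in the 12 libraries. Points are libraries, and the horizontal bar with whiskers is the mean ± SD of 3 libraries. For all 5 types the zeocin libraries of *hvatr.g* are the lowest group, the mock libraries of the genotypes overlap, and replicate 3 of mock-treated WT is the highest library.

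The linker histone genes kept the largest share of their level in WT. The 2 H1 members summed to 617, 681 and 795 CPM in WT mock libraries and 421, 484 and 509 CPM in WT zeocin libraries, a ratio of 0.676. In *hvatr.g* the sums were 627, 665 and 680.4 CPM in the mock and 360.1, 297 and 238 CPM in the zeocin libraries, a ratio of 0.454. For the more abundant of them, 5HG0520110, the libraries held 499, 564 and 627 CPM in the WT mock, 335, 406 and 396 CPM in the WT zeocin, 489, 512 and 525 CPM in the *hvatr.g* mock and 296, 232 and 186 CPM in the *hvatr.g* zeocin libraries. Its groups did not overlap between treatments in either genotype, and the same held for the other H1 gene, 2HG0186680, with ratios of 0.691 in WT and 0.407 in *hvatr.g*.

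The summed H2A members were at 2299.9 ± 376 CPM (SD, n = 3) in mock-treated WT and 1243 ± 194 CPM after zeocin. In *hvatr.g* they were at 2373 ± 53.1 and 955 ± 127 CPM, respectively. The zeocin-treated libraries of the genotypes stood close: the highest *hvatr.g* sum was 1073 CPM and the lowest WT sum 1108 CPM. The H2A gene with the highest mock level, 1HG0006650, was at 489.7, 522 and 587 CPM in the WT mock, 269, 257 and 303 CPM in the WT zeocin, 517, 501 and 530.4 CPM in the *hvatr.g* mock and 265, 235 and 202 CPM in the *hvatr.g* zeocin libraries. Its ratio was 0.519 in WT and 0.454 in *hvatr.g*, so the genotypes differed little for this gene. The nearby gene 1HG0006610 had ratios of 0.551 in WT and 0.469 in *hvatr.g*. A larger gap was seen for 6HG0543750, with ratios of 0.547 in WT and 0.353 in *hvatr.g*.

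The H2B members, partners of H2A in the nucleosome, summed to 2737 ± 441 CPM in WT mock libraries and 1552 ± 272 CPM in WT zeocin libraries. In *hvatr.g* the sums were 2543 ± 14.4 CPM in the mock and 1021 ± 159 CPM in the zeocin libraries. The ratios of the sums were 0.567 in WT and 0.402 in *hvatr.g*. The most abundant H2B member, 4HG0338400, was at 277, 314 and 404 CPM in the WT mock, 166, 161 and 229.9 CPM in the WT zeocin, 300.2, 282 and 289 CPM in the *hvatr.g* mock and 123, 123 and 101 CPM in the *hvatr.g* zeocin libraries. Its 3 zeocin-treated *hvatr.g* libraries were the lowest of the 12. The next H2B genes by mock level, 1HG0079280 and 1HG0079250, had ratios of 0.575 in WT and 0.413 in *hvatr.g* and of 0.551 in WT and 0.470 in *hvatr.g*, respectively.

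Of H3, 8 genes were members, with summed levels of 757, 856 and 1048 CPM in WT mock libraries and 441, 429 and 566 CPM in WT zeocin libraries. The sums in *hvatr.g* were 900.5, 859 and 871 CPM in the mock and 362, 346 and 289 CPM in the zeocin libraries. The H3 genes with the highest mock level had ratios of 0.544 in WT and 0.429 in *hvatr.g* (1HG0080760), 0.528 in WT and 0.373 in *hvatr.g* (1HG0060270) and 0.549 in WT and 0.349 in *hvatr.g* (1HG0023620). The H3 gene nearest the WT threshold, 6HG0568900, was at 65.2, 75.95 and 97.5 CPM in the WT mock, 36.8, 33.1 and 49.6 CPM in the WT zeocin, 84.7, 81.5 and 79.9 CPM in the *hvatr.g* mock and 26.8, 25.9 and 21.3 CPM in the *hvatr.g* zeocin libraries. Its ratios were 0.501 in WT and 0.301 in *hvatr.g*, and its zeocin-treated *hvatr.g* libraries were the lowest of the 12.

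The 26 H4 members summed to 2376 ± 473 CPM in WT mock libraries and 1340.0 ± 216 CPM after zeocin, and to 2267 ± 60.8 and 941 ± 99.6 CPM in *hvatr.g*. The most abundant, 2HG0185840, had ratios of 0.544 in WT and 0.420 in *hvatr.g*. The next, 3HG0303330, was at 271, 286 and 317 CPM in the WT mock, 157, 146 and 163 CPM in the WT zeocin, 289.8, 291 and 309.9 CPM in the *hvatr.g* mock and 164, 144 and 129 CPM in the *hvatr.g* zeocin libraries. Its zeocin-treated libraries overlapped between the genotypes. The H4 gene 5HG0502760 had ratios of 0.572 in WT and 0.447 in *hvatr.g*, and 2HG0191380, next to the WT threshold, had ratios of 0.501 in WT and 0.333 in *hvatr.g*. The lowest *hvatr.g* ratio of any histone member was that of the H4 gene 1HG0072530, with 15.5, 14.7 and 28.3 CPM in the WT mock, 11.2, 7.91 and 11.02 CPM in the WT zeocin, 22.5, 21.5 and 20.7 CPM in the *hvatr.g* mock and 4.42, 5.85 and 4.63 CPM in the *hvatr.g* zeocin libraries. Its libraries of both treatments stood apart in both genotypes, at counts far below those of the genes above.

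Many histone genes are near-identical copies, and how reads shared between copies were assigned is not given in the sources used here. The values of single copies are therefore uncertain, and the sums of a type less so. The histone members also moved together between replicates. In 64 of the 68 the highest mock-treated WT library was replicate 3, in 65 the highest zeocin-treated WT library was replicate 3, and in 60 the lowest zeocin-treated *hvatr.g* library was replicate 3. Without replicate 3 of both WT groups, a choice made after the data were seen, the rule gave 147 genes, of which 143 were among the 165. Without replicate 3 of zeocin-treated WT alone it gave 122 genes, of which 117 were among the 165.

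Membership split the histone genes by the WT line and not by the direction of change. The supplement describes 132 rows as H1, H2A, H2B, H3 or H4, a list the study chose on these libraries, of which 121 reached the floor. Of these, 68 were members and the other 53 were at or below 0.5 in both genotypes. Over the floor the split differed by type. Both H1 rows were members, as were 16 of 27 H2A, 16 of 24 H2B and 26 of 39 H4 rows. Of 29 H3 rows only 8 were members, and 21 were at or below 0.5 in both genotypes. Over all 121 rows the median ratio was 0.514 in WT and 0.333 in *hvatr.g*, and the *hvatr.g* ratio was below the WT ratio in each of the 121. Summed over the 132 rows, histone transcripts were at 13214 ± 2147 CPM in WT mock libraries, 6997 ± 1122 CPM in WT zeocin libraries, 12915 ± 112 CPM in *hvatr.g* mock libraries and 4810.2 ± 677 CPM in *hvatr.g* zeocin libraries.

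The remaining 97 members were grouped by their descriptions into 8 genes of DNA replication, 10 of chromatin, 12 of cell division and the cytoskeleton, 18 of the cell wall and 49 others. Their median ratio was 0.625 in WT and 0.415 in *hvatr.g*. In WT, 42 of the 97 were called lower after zeocin, compared with 44 of the 68 histone members and 1.59% of all tested genes.

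**Figure D3:**
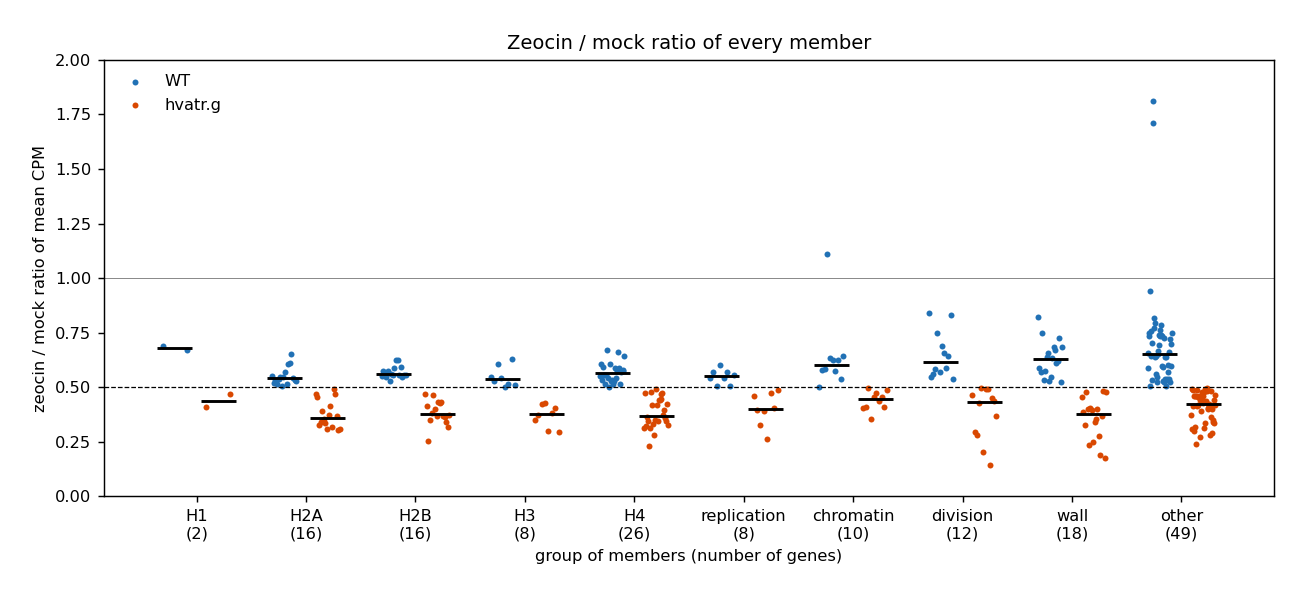
Ratio of the zeocin mean to the mock mean of every member in WT (blue) and *hvatr.g* (orange), by type or role, with the number of genes in each group below its name. Black bars are medians, the dashed line is the ratio of 0.5 of the rule and the grey line is a ratio of 1. Only 3 members, 1 of the chromatin group and 2 of the other genes, had a WT ratio over 1.

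The 8 replication members include parts of the machinery that opens and copies DNA at a fork. Their summed level was 352, 422 and 264 CPM in WT mock libraries and 179.6, 209 and 169 CPM in WT zeocin libraries. In *hvatr.g* it was 449.8, 360.4 and 303 CPM in the mock and 169, 160.3 and 115 CPM in the zeocin libraries. The zeocin-treated groups of the genotypes touched without overlap, with the highest *hvatr.g* library and the lowest WT library both at 169 CPM. Of the 2 genes described as DNA helicase, 1HG0071300 was at 122, 142 and 88.8 CPM in the WT mock, 58.4, 64.3 and 56.1 CPM in the WT zeocin, 155, 126 and 106 CPM in the *hvatr.g* mock and 49.1, 46.4 and 31.7 CPM in the *hvatr.g* zeocin libraries. The other, 1HG0031730, had ratios of 0.542 in WT and 0.460 in *hvatr.g*.

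*RPA3A.A* (3HG0252970) encodes the small subunit of replication protein A, which covers single-stranded DNA. It was at 12.5, 15.2 and 15.7 CPM in the WT mock, 7.74, 6.96 and 7.20 CPM in the WT zeocin, 18.5, 17.6 and 17.2 CPM in the *hvatr.g* mock and 7.38, 7.27 and 6.87 CPM in the *hvatr.g* zeocin libraries. Its level after zeocin was nearly the same in both genotypes, and its lower *hvatr.g* ratio, 0.403 against 0.505 in WT, came with a mock level 1.23 times that of WT. The DNA primase gene 1HG0061220, whose product lays down the primers for DNA synthesis, had ratios of 0.569 in WT and 0.395 in *hvatr.g*. The origin recognition complex, which marks the sites where replication starts, was represented by subunit 6 (2HG0122420), with ratios of 0.541 in WT and 0.262 in *hvatr.g*, and subunit 1 (7HG0659760), with ratios of 0.557 in WT and 0.486 in *hvatr.g*. The ratios were 0.602 in WT and 0.391 in *hvatr.g* for topoisomerase 1-associated factor 1 (1HG0090300) and 0.571 in WT and 0.473 in *hvatr.g* for dna2 (2HG0196740).

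Among the 10 chromatin members were the genes for the maintenance of DNA methylation. *MET1* (2HG0151710) encodes the methyltransferase that copies CG methylation after replication. It was at 131, 160.1 and 88.6 CPM in the WT mock, 70.9, 87.99 and 62.6 CPM in the WT zeocin, 176, 139.6 and 117 CPM in the *hvatr.g* mock and 80.9, 74.99 and 57.9 CPM in the *hvatr.g* zeocin libraries. The zeocin-treated groups overlapped between the genotypes. *CMT3* (6HG0628050), the methyltransferase of CHG sites in Arabidopsis, was at 135, 157 and 106 CPM in the WT mock libraries. It was at 71.7, 82.5 and 60.8 CPM in the WT zeocin libraries. In *hvatr.g* it was at 188, 142 and 126 CPM in the mock and 66.8, 68.5 and 50.3 CPM in the zeocin libraries. Its ratios were 0.539 in WT and 0.407 in *hvatr.g*, and its zeocin-treated groups overlapped between the genotypes.

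*VIM1* (1HG0000630), which in Arabidopsis binds methylated DNA and is needed for CG methylation, was at 92.3, 109.5 and 63.4 CPM in the WT mock, 45.7, 46.1 and 40.8 CPM in the WT zeocin, 96.5, 79.4 and 75.02 CPM in the *hvatr.g* mock and 35.1, 39.05 and 27.8 CPM in the *hvatr.g* zeocin libraries. All zeocin-treated *hvatr.g* libraries were below the zeocin-treated WT libraries, and its WT ratio was the lowest of all members. *CHR1.B* (4HG0338270), described as the remodelling helicase DDM1, was at 146, 151 and 122 CPM in the WT mock, 84.2, 86.1 and 94.1 CPM in the WT zeocin, 152, 120.1 and 119 CPM in the *hvatr.g* mock and 66.96, 63.01 and 48.02 CPM in the *hvatr.g* zeocin libraries. Its zeocin-treated *hvatr.g* libraries were again below all zeocin-treated WT libraries, while the mock libraries overlapped. *ASF1B* (1HG0084850), a chaperone that hands H3 and H4 to assembling nucleosomes, was at 22.5, 23.6 and 28.4 CPM in the WT mock libraries. It was at 15.8, 12.7 and 14.6 CPM in the WT zeocin libraries. In *hvatr.g* it was at 26.3, 24.7 and 26.6 CPM in the mock and 9.67, 13.5 and 8.47 CPM in the zeocin libraries. Its ratios were 0.579 in WT and 0.408 in *hvatr.g*, and its zeocin-treated groups overlapped between the genotypes.

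**Figure D4:**
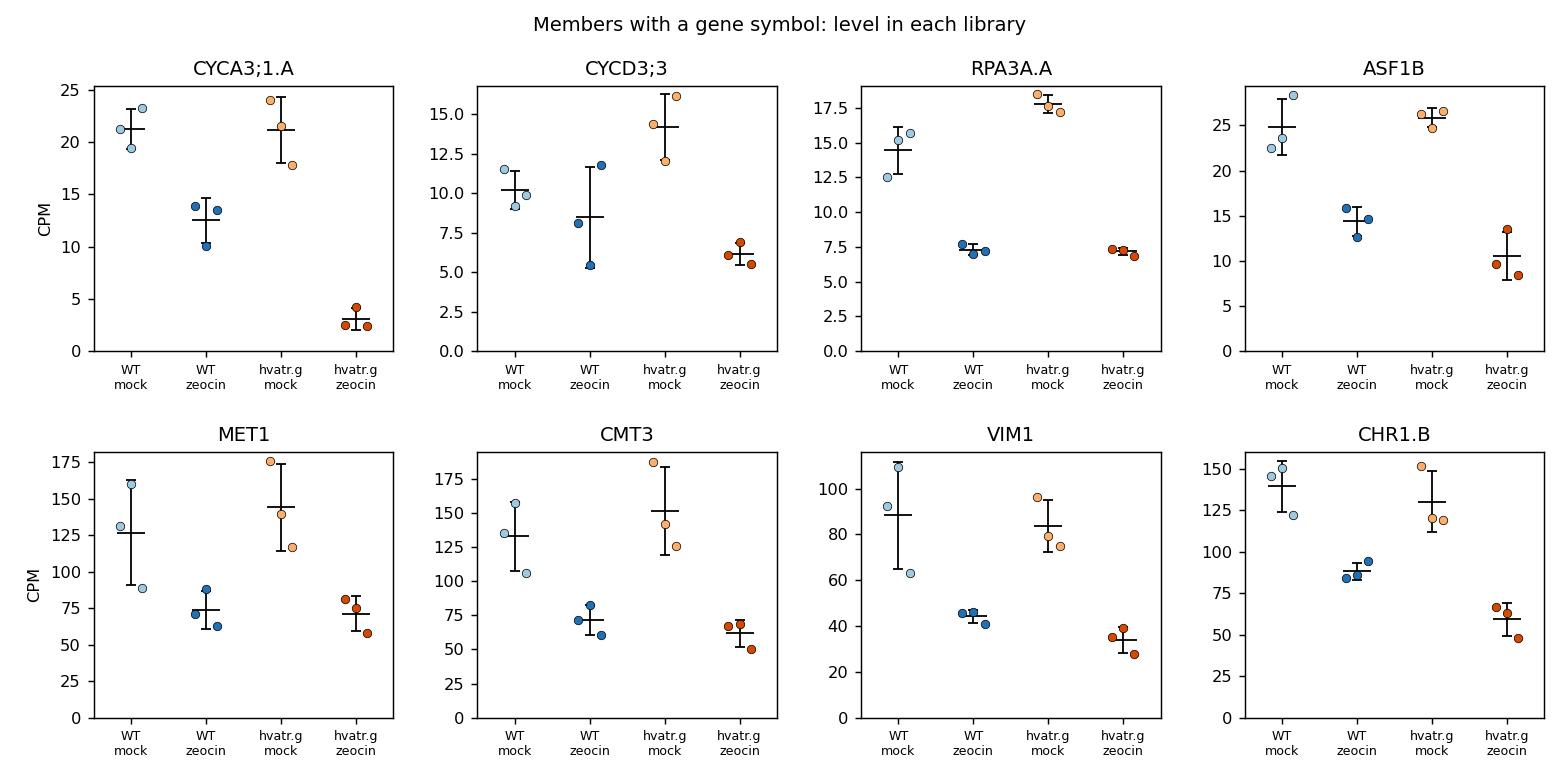
CPM of the 8 members with a gene symbol, in each of the 12 libraries. Points are libraries, and the bar with whiskers is the mean ± SD of 3 libraries. After zeocin the *hvatr.g* mean of *CYCA3;1.A* was 0.245 times the WT mean, the lowest such ratio of the 8 genes. The zeocin-treated groups stand apart for *CYCA3;1.A*, *VIM1* and *CHR1.B*. They overlap for *RPA3A.A*, *MET1*, *CMT3*, *ASF1B* and *CYCD3;3*.

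Other chromatin members differed in abundance, with means over the 6 mock libraries from 33.0 CPM (4HG0416120) to 246 CPM (5HG0479210). HMG-Y-related protein A (5HG0479210), an AT-hook DNA-binding protein, had ratios of 0.573 in WT and 0.436 in *hvatr.g*. DNA topoisomerase 2 (6HG0606460), which untangles DNA duplexes, was at 171, 185 and 122 CPM in the WT mock, 95.7, 106 and 96.9 CPM in the WT zeocin, 259, 208 and 162 CPM in the *hvatr.g* mock and 99.4, 106 and 82.6 CPM in the *hvatr.g* zeocin libraries. Its zeocin-treated groups overlapped between the genotypes and its mock mean was 1.31 times higher in *hvatr.g*. The condensin subunit 3 gene (7HG0669710) and a PHD-finger gene (4HG0416120) had ratios of 0.642 in WT and 0.489 in *hvatr.g* and of 0.623 in WT and 0.474 in *hvatr.g*, respectively. Replicate 3 of mock-treated WT, the highest library for most histone members, was the lowest mock-treated WT library for 14 of the 18 replication and chromatin members.

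Of the 12 division and cytoskeleton members, *CYCA3;1.A* (4HG0342640) had the lowest *hvatr.g* ratio of all 165. A3-type cyclins accompany the entry into and passage through S phase in Arabidopsis. The gene was at 21.2, 19.4 and 23.2 CPM in the WT mock, 13.9, 10.1 and 13.5 CPM in the WT zeocin, 24.02, 21.6 and 17.8 CPM in the *hvatr.g* mock and 2.47, 4.25 and 2.46 CPM in the *hvatr.g* zeocin libraries. The mock groups overlapped, and after zeocin *hvatr.g* was at 0.245 of the WT mean, with no overlap. *CYCD3;3* (5HG0467900), a D-type cyclin that promotes division, was at 11.5, 9.17 and 9.87 CPM in the WT mock, 8.12, 5.46 and 11.8 CPM in the WT zeocin, 14.3, 12.01 and 16.1 CPM in the *hvatr.g* mock and 6.07, 6.89 and 5.52 CPM in the *hvatr.g* zeocin libraries. Its WT libraries overlapped between treatments, and its zeocin-treated groups overlapped between the genotypes.

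IQ-DOMAIN 1 (3HG0236260), of a family of calmodulin-binding proteins associated with microtubules, was at 10.99, 11.2 and 14.1 CPM in the WT mock, 6.50, 4.54 and 9.57 CPM in the WT zeocin, 16.4, 11.8 and 13.6 CPM in the *hvatr.g* mock and 2.13, 4.25 and 2.12 CPM in the *hvatr.g* zeocin libraries. It had the fourth lowest *hvatr.g* ratio, and all 3 *hvatr.g* libraries were below the WT libraries after zeocin. The kinesin-like motor genes 1HG0073440 and 2HG0160160 had ratios of 0.549 in WT and 0.294 in *hvatr.g* and of 0.584 in WT and 0.429 in *hvatr.g*. The ratios of a beta-tubulin gene (4HG0415420) were 0.641 in WT and 0.452 in *hvatr.g*. For the WD-repeat cell cycle regulatory genes they were 0.538 in WT and 0.367 in *hvatr.g* (5HG0491790) and 0.748 in WT and 0.499 in *hvatr.g* (2HG0193900). Those of a dynamin-like gene (3HG0288660), of a family that pinches membranes, were 0.689 in WT and 0.493 in *hvatr.g*.

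The 18 cell wall members code for enzymes and structural proteins of the wall. They had a summed level of 625, 648 and 689 CPM in WT mock libraries and 412, 337 and 452 CPM in WT zeocin libraries. In *hvatr.g* the sums were 810.1, 729 and 647 CPM in the mock and 249, 318 and 233 CPM in the zeocin libraries. The zeocin-treated *hvatr.g* libraries were below all zeocin-treated WT libraries. The most abundant wall gene was a glucan endo-1,3-beta-glucosidase (1HG0077840), an enzyme that cuts callose, at 187, 193 and 209.8 CPM in the WT mock, 122, 98.5 and 127 CPM in the WT zeocin, 265, 251 and 240.2 CPM in the *hvatr.g* mock and 91.9, 106 and 95.8 CPM in the *hvatr.g* zeocin libraries. Low ratios in *hvatr.g* were seen for EXORDIUM-like 1 (6HG0617000), a relative of a growth-related cell wall protein of Arabidopsis, and for a xyloglucan endotransglucosylase/hydrolase (5HG0478830), which cuts and rejoins xyloglucan chains.

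EXORDIUM-like 1 was at 19.9, 18.9 and 28.2 CPM in the WT mock, 9.83, 5.95 and 19.2 CPM in the WT zeocin, 28.8, 34.6 and 22.8 CPM in the *hvatr.g* mock and 3.91, 7.22 and 3.97 CPM in the *hvatr.g* zeocin libraries. The xyloglucan enzyme was at 25.1, 19.8 and 24.99 CPM in the WT mock, 13.00, 6.52 and 23.2 CPM in the WT zeocin, 20.95, 17.4 and 20.02 CPM in the *hvatr.g* mock and 3.13, 5.53 and 2.35 CPM in the *hvatr.g* zeocin libraries. For both genes the WT libraries overlapped between treatments, with replicate 3 of zeocin-treated WT within the mock range, whereas the *hvatr.g* libraries stood apart. The other wall members were 2 further xyloglucan endotransglucosylase/hydrolase genes, 3 pectinesterases, 3 peroxidases, 3 further glucanases, an endoglucanase, an expansin, a SKU5-like gene and a gene described as glucans biosynthesis glucosyltransferase H. Over the 18 genes the ratios ran from 0.522 to 0.821 in WT and from 0.175 to 0.481 in *hvatr.g*. In WT 5 of the 18 were called lower, against 86 of the 165 members and 1.59% of all tested genes.

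The 49 other members did not form a single class. The thaumatin-like gene 7HG0730070, of a family with members induced by pathogens, was at 91.2, 94.2 and 108 CPM in the WT mock, 54.9, 51.5 and 68.8 CPM in the WT zeocin, 139, 111 and 118 CPM in the *hvatr.g* mock and 35.97, 52.7 and 34.9 CPM in the *hvatr.g* zeocin libraries. An auxin influx transporter (1HG0017310), which carries auxin into cells, was at 69.8, 76.6 and 65.1 CPM in the WT mock, 42.6, 32.9 and 49.4 CPM in the WT zeocin, 110.1, 118 and 118 CPM in the *hvatr.g* mock and 31.97, 44.4 and 29.7 CPM in the *hvatr.g* zeocin libraries. Its mock mean was 1.63 times higher in *hvatr.g* without overlap, and its ratio was 0.590 in WT and 0.307 in *hvatr.g*. An AP2-like transcription factor gene (1HG0058550) had ratios of 0.504 in WT and 0.301 in *hvatr.g*, and an aspartyl/glutamyl-tRNA amidotransferase subunit gene (6HG0567330) had ratios of 0.503 in WT and 0.282 in *hvatr.g*. Both had a WT ratio close to the threshold. A defensin gene (1HG0010660) was at 97.7, 103 and 126 CPM in the WT mock, 60.4, 54.4 and 99.7 CPM in the WT zeocin, 36.2, 42.9 and 42.5 CPM in the *hvatr.g* mock and 14.3, 18.8 and 12.2 CPM in the *hvatr.g* zeocin libraries. It stood out by a mock level in *hvatr.g* of 0.372 times that of WT. The auxin transporter and the defensin gene are singled out here after their values were seen.

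Only 3 members had a higher mean after zeocin in WT. The glycosyltransferase gene 2HG0106450, of a large class of enzymes that attach sugars to other molecules, was at 30.8, 32.7 and 34.2 CPM in the WT mock, 65.8, 68.96 and 42.3 CPM in the WT zeocin, 143, 208 and 243 CPM in the *hvatr.g* mock and 119, 59.7 and 109 CPM in the *hvatr.g* zeocin libraries. A second glycosyltransferase gene nearby, 2HG0106390, was at 15.5, 15.3 and 20.7 CPM in the WT mock, 35.2, 29.3 and 23.7 CPM in the WT zeocin, 76.1, 108 and 129 CPM in the *hvatr.g* mock and 54.99, 29.6 and 58.9 CPM in the *hvatr.g* zeocin libraries. For both, each zeocin-treated WT library was above each mock-treated one, each zeocin-treated *hvatr.g* library was below each mock-treated one, and every *hvatr.g* mock library was above every WT library.

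The third, 2HG0199050, described as a histone-lysine N-methyltransferase, was at 22.6, 22.99 and 22.5 CPM in the WT mock, 23.2, 30.6 and 21.6 CPM in the WT zeocin, 90.5, 144 and 143 CPM in the *hvatr.g* mock and 65.6, 28.05 and 39.2 CPM in the *hvatr.g* zeocin libraries. Its WT libraries overlapped between treatments. The mock means of these 3 genes were 6.08, 6.07 and 5.54 times higher in *hvatr.g* than in WT, so that after zeocin their *hvatr.g* level was still 1.63, 1.63 and 1.76 times the WT level. A beta-amylase gene (1HG0057350) had a WT ratio of 0.940 and a mock mean 1.80 times higher in *hvatr.g*. The formin-like gene 1HG0002630, of a family that nucleates actin filaments, had the fifth highest WT ratio, 0.842, with a mock mean 1.10 times that of WT.

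**Figure D5:**
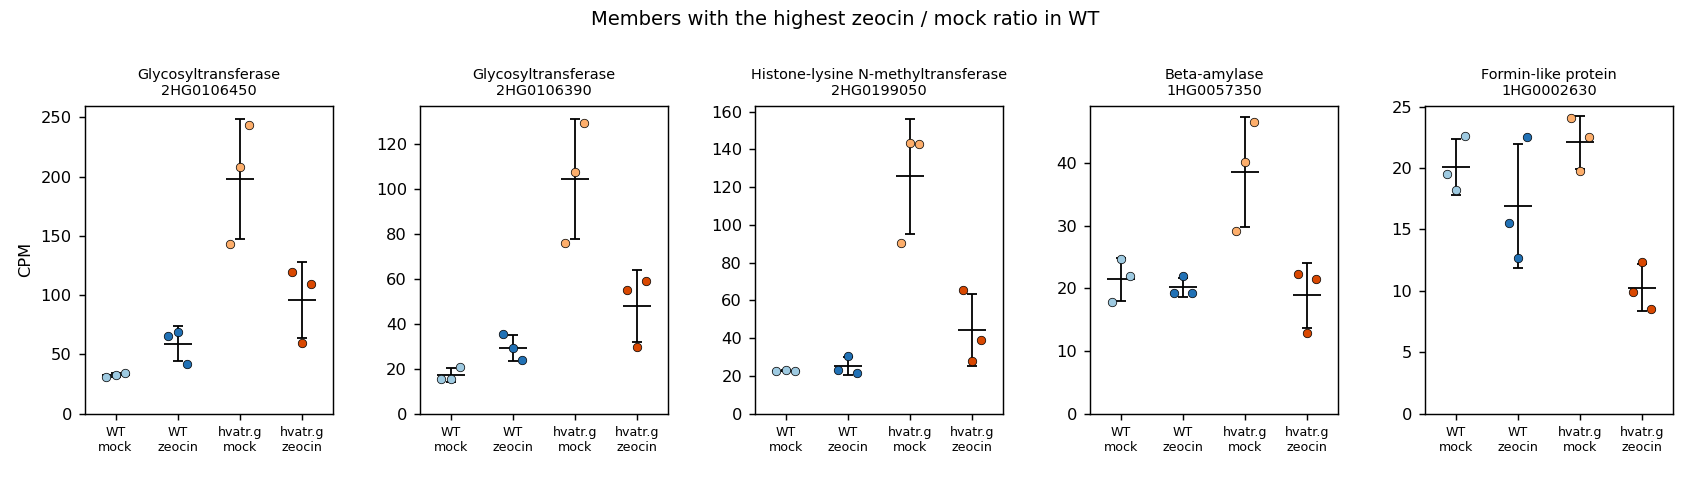
CPM of the 5 members with the highest zeocin/mock ratio in WT, in each of the 12 libraries. Points are libraries, and the bar with whiskers is the mean ± SD of 3 libraries. In the first 4 panels the mock-treated *hvatr.g* group is the highest of the 4 groups, and in the fifth the mock groups overlap.

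Under mock treatment few members were called between the genotypes. The median ratio of the *hvatr.g* to the WT mock mean was 1.03 over the members and 1.05 over all rows above the floor. In edgeR, 8 members were called higher in mock-treated *hvatr.g*, against 7.32% of all tested genes, and 3 were called lower, against 8.35%. No histone gene was among these 11. The members called lower were the defensin gene, a gene described as HTH-type transcriptional regulator YidZ (2HG0178160) and a heavy metal-associated gene (2HG0163090). Without replicate 2 of mock-treated *hvatr.g* 7 members were called in either direction, against 9.32% of all tested genes. With all 12 libraries 7.32% were called higher and a further 8.35% lower, so that share fell as well.

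Under zeocin treatment the median ratio of *hvatr.g* to WT was 0.695 for the members and 1.04 for all rows above the floor. Of the members, 94 were called lower in *hvatr.g*, against 10.2% of all tested genes, and 0 were called higher, against 6.42%. The 94 included 46 of the 68 histone members, 11 of the 18 wall members, but 2 of the 8 replication and 1 of the 10 chromatin members. The zeocin-treated *hvatr.g* libraries were all below the zeocin-treated WT libraries for 106 members, against 14.9% of the genes tested. The count of 94 was 47 without replicate 3 of zeocin-treated WT, where 10.7% of all tested genes were called in either direction. It was 40 without replicate 3 of zeocin-treated *hvatr.g*, where 8.62% were. With all 12 libraries 10.2% were called lower and a further 6.42% higher, so the share of all tested genes fell in these fits as well.

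In the lists of pathways around the members, more genes were called lower than higher after zeocin in both genotypes. The list of cell cycle genes held 37 genes, of which 7 were members. In *hvatr.g* 36 of the 37 were called lower, the median log2 fold change being -2.36, and in WT 24, the median being -1.18. Of 32 genes under DNA replication, 7 of them members, 24 were called lower and 6 higher in *hvatr.g*, and 17 lower and 6 higher in WT. All 18 genes under microtubule-based movement were called lower in *hvatr.g* and 17 in WT, and 2 of them were members. For the 11 cyclin and CDK genes with a symbol, the median log2 fold change was -2.86 in *hvatr.g*, and in WT it was -1.51. Of all tested genes, 3.97% were called lower and 2.17% higher in *hvatr.g*, and 1.59% lower and 1.57% higher in WT. The median over all tested genes was 0.00 in *hvatr.g* and 0.01 in WT. The study chose these lists on the same libraries, so they are not independent of the members.

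The catalogue of 421 DNA damage response genes, drawn up from Arabidopsis homologs, held 2 members, *ASF1B* and *RPA3A.A*. Of its 319 genes tested, 30 were called lower and 20 higher after zeocin in *hvatr.g*, and 13 lower and 19 higher in WT, with medians of -0.06 and 0.01. These were 9.40% and 6.27% of the list in *hvatr.g* and 4.08% and 5.96% in WT, each above the share of all tested genes. As markers of differentiated root, 15 genes for nicotianamine synthase or high affinity nitrate transporters had been listed. The study singled out genes of these kinds as lower in *hvatr.g* on the same libraries, so a difference between the genotypes in them is no independent reading of cell type. Their sum ran from 135 to 195 CPM in WT mock libraries and from 167 to 967 CPM in WT zeocin libraries. In *hvatr.g* it ran from 24.1 to 30.4 CPM in the mock and from 31.4 to 33.8 CPM in the zeocin libraries. The part of this difference in the levels of the members was not tested.

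To read the pattern in libraries that had not chosen the genes, the rule was applied to the other replicates of every group and the ratios were read in the replicate held out, a check added after the data were seen. Each ratio is of 1 library to another with the same number. In replicate 1, the rule chose 151 genes, of which 104 met both ratio conditions in the held-out libraries, 68.9%, compared with 1.99% of all rows over the floor. In replicate 3, 110 of 137 genes did, 80.3%, compared with 2.37%. In replicate 2, 69 of 223 genes did, 30.9%, compared with 0.821%, and the median WT ratio of the chosen genes was 0.527. The *hvatr.g* ratio was below the WT ratio in 144 of 151, 185 of 223 and 132 of 137 genes, respectively. The corresponding shares of all rows over the floor were 47.7%, 48.8% and 57.9%. A gene that met both conditions has the lower ratio in *hvatr.g* by construction, so these counts contain the former ones. Of the chosen genes, 130, 161 and 124 were members. All rows over the floor had median held-out ratios from 0.988 to 1.04 in WT and from 1.01 to 1.03 in *hvatr.g*. Few of them could therefore meet the *hvatr.g* condition. The chosen genes were not compared with other genes lowered by zeocin. The shares thus cannot decide whether a fall to 0.5 only in *hvatr.g* was reproduced.

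By their identifiers, 38 members lay on chromosome 1H, 28 on 2H, 14 on 3H, 17 on 4H, 20 on 5H, 27 on 6H and 20 on 7H, and 1 on unplaced sequence. Chromosomes 1H and 6H held 23.0% and 16.4% of the members, against 13.4% and 11.8% of all rows over the floor, and 16 and 17 of the histone members. In 10 places members had directly following identifiers, which took in 24 genes. On 6H, an H2B and 2 H2A genes (6HG0543730 to 6HG0543750) were followed after 1 identifier by a run of 3 H2A genes and an H2B gene (6HG0543770 to 6HG0543800), with *hvatr.g* ratios from 0.309 to 0.434 and WT ratios from 0.506 to 0.623. On 1H, 3 H4 genes (1HG0072520 to 1HG0072540) had *hvatr.g* ratios of 0.345, 0.230 and 0.313, and an H4 gene stood next to an H3 gene (1HG0023610 and 1HG0023620), with ratios of 0.315 and 0.349. Whether neighbouring genes shared reads was not tested.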

How the data were processed

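Poly(A) RNA of barley root apices was sequenced in 12 libraries, 3 in each of 4 groups. Per the authors' methods and processing notes, reads were trimmed (Trim Galore), aligned to the Morex reference, version r3 (HISAT2 2.1.0), and assigned to transcripts (Subread 1.5.2), and the deposited values are raw counts. The treatment of strand and of reads shared between copies is not given in the sources used here. CPM used the column totals. Counts were fitted in R 4.3.3 with edgeR 4.0.16 (filterByExpr, TMM, glmQLFit and glmQLFTest over all 12 libraries, adjusted p under 0.05), and with DESeq2 1.42.0 as an alternative. The fit was tested on simulated data. The labels give replicate numbers and no shared batch. By the correlation of deviations from the group means, over 0.1 in every pair, the numbers pair mock with zeocin libraries in WT (0.350, 0.538 and 0.637) but not in *hvatr.g* (0.277, 0.021 and 0.271) or between the genotypes. Of all 18 pairs of libraries with the same number, 12 were over 0.1. Between the genotypes, mock libraries correlated at 0.360 for number 1, -0.038 for number 2 and 0.334 for number 3. Python 3.11.15, pandas 2.3.3 and matplotlib 3.10.9 served for summaries and figures. With 3 libraries a group, p-values measure the spread between these libraries only.

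The members and the gene lists were chosen with earlier results of these data known. Genes were named by a rule that takes, for each histone type, the 3 with the highest mock level, the 10 most abundant non-histone members, every member with a symbol in the study, the 5 lowest *hvatr.g* ratios, the 5 lowest and the 5 highest WT ratios and the 3 genes on each side of both thresholds. It named 43 members. Other genes named within a role were added to describe that role, and some members are not reported here one by one. The 9 identifiers that the rule lists for removal are not reported here. No column of fold changes or p-values by the authors was used.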

Additional observations from a re-analysis of the deposited data

Results flagged for a closer look

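The glycosyltransferase genes HORVU.MOREX.r3.2HG0106450 and HORVU.MOREX.r3.2HG0106390 stood apart because their libraries moved in opposite directions in the genotypes: every zeocin-treated WT library was above every mock-treated one, at a ratio of the means of 1.81 and 1.71, and every zeocin-treated *hvatr.g* library was below every mock-treated one, at 0.485 and 0.458. Both were chosen by these contrasts, and the difference was not tested apart from the fit over all genes. There, edgeR called 0 of 26039 genes for the interaction at an adjusted p under 0.05 and 1120 at an unadjusted p under 0.05, while DESeq2 called 113 genes at an adjusted p under 0.05, both of these among them.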

How the results depend on the processing

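The rule gave 166 genes with TMM library sizes and 161 with DESeq2 size factors, with 158 of the 165 kept in each, 193 at a floor of 5 CPM and 121 at a floor of 20 CPM. Leaving out 1 library at a time gave 122 to 186 genes. When 1 library was left out, 154 to 164 members were called lower after zeocin in *hvatr.g*, against 2.45% to 4.52% of all tested genes. In WT 24 to 97 were, against 0.639% to 1.57%. Fitting only the 6 WT libraries called 27 in WT, against 0.891%. For the interaction, DESeq2 called 8 members, against 0.434% of all tested genes. With edgeR and no filter on low counts 3 were called, against 0.0777%. No fit that left out 1 library called any member (0 to 0). Between the genotypes, 7 to 12 members were called under mock when 1 library was left out, against 9.32% to 16.8% of all tested genes. Under zeocin treatment 40 to 106 were called, against 8.62% to 19.3%. Of the named genes' log2 fold changes, 640 values under alternatives moved by less than the spread between replicates and 5 moved by more.

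In WT the replicate number paired mock with zeocin libraries. A block in the 6 WT libraries, chosen after the data were seen, called 140 members lower, against 3.80% of all genes tested in it. The same 6 libraries without the block gave 27, against 0.891%. The fit of all 12 libraries without a block gave 86, against 1.59%. With the replicate block in all 12 libraries, 164 members were called lower in *hvatr.g*, against 5.07% of all tested genes. In WT 104 were, against 2.07%. For the interaction 0 members were called (114 at an unadjusted p under 0.05, against 5.62%). Between the genotypes, 15 were called under mock, against 20.1%, and 106 under zeocin treatment, against 21.7%. The member with the lowest mean over the mock libraries, 10.7 CPM (HORVU.MOREX.r3.4HG0402940), had 210 to 912 counts in a library, and within groups the libraries differed by more than counting error over all rows, so the spread between libraries is the larger limit. The limits of the data are the 3 libraries in each group, the single mutant line and the reads shared between histone copies.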
